A study of Homo sapiens with 4 samples.

Results

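Chromatin accessibility in H1 cells given Activin A and Wnt3a together was compared with that in H1 cells given Activin A alone, so that the libraries differ by the addition of Wnt3a. H1, a long-established line of human embryonic stem cells, was cultured without feeders. ATAC-seq reads accessibility through a transposase that cuts open DNA and tags the ends for sequencing. The Activin A cells received Activin A at 25 ng/ml for 6 h and the combined cells received Activin A and Wnt3a, each at 25 ng/ml, for the same 6 h. Both were moved from the growth medium, which holds N2, B27 and basic fibroblast growth factor, to a medium with B27, whose listed components include no N2 and no such factor. The series also holds a library from cells given Wnt3a alone at 25 ng/ml for 6 h in that B27 medium and a control library from cells kept in growth medium, and these served here as outside readouts. Each of the 4 groups has 1 library. No replicate error can be given, no test between groups was made, and every difference below is between single libraries. Intervals are exact 95% intervals that cover counting error only, and they treat neighbouring regions as independent.

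Each library is represented by the authors' list of peaks with a score per peak. Peaks of the combined and the Activin A lists that overlapped by at least 1 base were merged into regions, which gave 85213 regions of the 87980 obtained when all 4 lists are merged in the same way. Of these, 44444 had a peak in both lists, 11830 only in the combined list and 28939 only in the Activin A list. The strength of a region was its best score in a list, expressed as a percentile rank within that list, so that 100 is the strongest peak. Gene positions on hg19, the build of the files, were not used here, so regions were placed by chromosome and cytogenetic band and none was assigned to a gene. For the same reason the identity of the cells was not checked at marker genes.

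Activin A belongs to the TGF-beta family and acts through receptors that phosphorylate SMAD2 and SMAD3. Wnt3a acts by keeping beta-catenin from degradation, so that it can join TCF and LEF factors on DNA. In human embryonic stem cells the pair of signals is known to start formation of mesendoderm, from which mesoderm and endoderm arise, through primitive streak genes such as TBXT, EOMES and MIXL1. The series names HAS2, which makes hyaluronan, and ALDH3A2, a fatty aldehyde dehydrogenase, as genes raised by both pathways.

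Adding Wnt3a left most of the combined list inside the Activin A list, and the regions that differed were mostly weak. Of 56274 combined regions, 79.0% (78.6 to 79.3) had an Activin A peak, and of 73383 Activin A regions, 60.6% (60.2 to 60.9) had a combined peak. The 2 lists differ in length, with 58382 combined and 75585 Activin A peaks, and the number of reads behind each is not given in the sources used here. When both lists were held at the length of the shorter one, 15718 regions were found only with both ligands and 16201 only with Activin A. Lists of equal length leave nearly equal numbers outside the overlap by construction, so these counts say nothing of which treatment opened more regions, and the counts of 28939 and 11830 cannot be told apart from the difference in list length.

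Absence from the other list followed the score. Among the weakest decile of the combined list, 54.8% (53.5 to 56.1) of regions had no Activin A peak, and among the weakest decile of the Activin A list 79.3% (78.3 to 80.2) had no combined peak. In the strongest decile of each list, 1 of 5818 combined regions and 1 of 7523 Activin A regions were absent from the other list. Among regions at or above the 75th percentile of their list, 45 of 14461 combined regions (0.311%, 0.227 to 0.416) lacked an Activin A peak and 253 of 18647 Activin A regions (1.36%, 1.20 to 1.53) lacked a combined peak. Regions in 1 list only were also narrow, with a median width of 586 bp for the combined and 581 bp for the Activin A regions, against 983 bp for shared regions, whose width comes from merging 2 peaks or more. A peak of the other list lay within 1000 bases, without touching, for 17.1% of the combined-only and 13% of the Activin A-only regions.

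**Figure D1:**
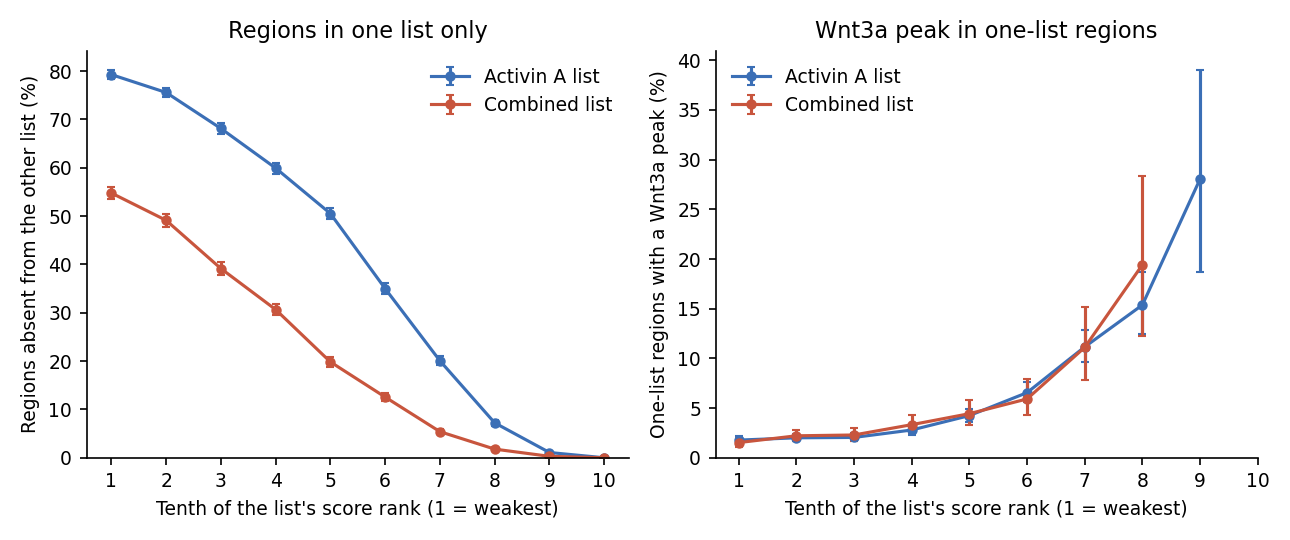
Left, share of regions with no peak in the other list, by decile of the score rank of the list itself, for the Activin A and the combined list. Right, share of those one-list regions that have a peak in the Wnt3a list, drawn where at least 20 regions remain. Bars are exact 95% intervals for counting error. The left curves fall from 79.3% and 54.8% in the weakest decile to nearly 0 in the strongest, and the intervals of the right curves overlap in all 8 deciles where both are drawn.

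Peaks of the Wnt3a library were rare in the regions found only when Wnt3a was added, as they were in those found only without it. The outside lists are shorter than the 2 compared, with 21078 Wnt3a and 26223 control peaks. That limits how many weak regions can have a peak in them. A Wnt3a peak was present in 364 of 11830 combined-only regions (3.08%, 2.77 to 3.40) and in 1031 of 28939 Activin A-only regions (3.56%, 3.35 to 3.78). Compared within the same decile of score rank, the intervals for the combined-only and Activin A-only regions overlapped in all 8 deciles that held at least 20 regions of each kind, although ranks in lists of unequal length are not the same scale. The combined-only share was the higher one in 5 of the 8 deciles, unlike the overall order. For control peaks it was the higher one in 6 of the 8, again with all intervals overlapping. The order of the overall shares turned round in 2 of the alternatives. A Wnt3a peak was found for 10.99% of combined-only and 7.53% of Activin A-only peaks when an overlap of 50% of each peak was required, and for 7.07% and 5.11% when every peak was set to 500 bases around its centre. Control peaks, which cannot reflect Wnt3a, were present in 5.38% (4.98 to 5.80) of combined-only and 5.39% (5.14 to 5.66) of Activin A-only regions. Shared regions had a Wnt3a peak in 39.8% of cases and a control peak in 46.2%.

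The strongest regions that appeared only with both ligands came from several chromosomes, and 3 of the 8 lay in chromosome 5q14. The highest combined score, 383 (percentile rank 92.1), was at chr5:83776598-83777559 in band 5q14.3, which also had a Wnt3a and a control peak. Next came chrX:5566733-5567910 in Xp22.32, with a score of 288, and this region had no peak in any other list. The region at chr14:38658828-38660157 in 14q21.1 scored 281 and the region at chr5:82771016-82772670 in 5q14.2 scored 280, each with a control peak and no Wnt3a peak. The region at chr13:24205978-24207515 in 13q12.12 scored 270 and was absent from both outside lists. Scores of 259, 252 and 251 belonged to chr16:65268980-65270308 in 16q21, chr8:31336105-31336940 in 8p12 and chr5:87955192-87956203 in 5q14.3. In all, 3 of these 8 regions had a Wnt3a peak and 5 had a control peak, and those at Xp22.32 and 13q12.12 had neither. Of all 45 combined-only regions at or above the 75th percentile, 13 had a Wnt3a peak and 21 a control peak.

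The strongest regions that were found with Activin A and not with both ligands had higher scores, in a list with a median score of 109 against 94.3 in the combined list. The first, at chr18:59559780-59562233 in 18q21.33, had an Activin A score of 449 (percentile rank 90.5) and no peak in any other list. It was followed by chr17:76879026-76881071 in 17q25.3 with a score of 425, chr20:43929388-43930102 in 20q13.12 with 424, and chr19:46277962-46278719 in 19q13.32 with 414. The region at chr6:32054646-32056219 in 6p21.33 scored 387 and had a Wnt3a peak but no control peak. The others were at chr19:36468267-36469157 in 19q13.12 (374), chr2:95824474-95826189 in 2q11.1 (370) and chr3:12837799-12839135 in 3p25.2 (369). A Wnt3a peak was present in 4 of the 8 and a control peak in 3. Of all 253 Activin A-only regions at or above the 75th percentile, 66 had a Wnt3a peak and 72 a control peak.

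For the shared regions the question is whether their strength moved when Wnt3a was added, and the strongest of them moved little. The percentile rank in the combined list minus that in the Activin A list had a median of -4.43 points (-4.59 to -4.26), with quartiles of -17.6 and 3.35. A list that is longer by weak peaks gives the same region a higher percentile, and when ranks were taken among the shared regions alone, the median was -0.0039 with quartiles of -10.9 and 11.01. On the full-list ranks, 3548 regions were up by 20 points or more, which is 7.98% of all shared regions, and 9789 were down by as much, which is 22% of them. On the ranks among shared regions the same counts were 6227 and 6235, each 14% of the 44444 regions. Ranking both libraries over the same regions sets the mean change to 0, so the balance on this scale is fixed by the ranking and the imbalance on the full-list ranks moves with list length. Neither shows whether accessibility rose or fell as a whole. The values below compare regions with each other and use the ranks among shared regions unless full-list ranks are named.

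The strongest regions kept their rank best. Of the 4445 shared regions in the strongest decile by Activin A score, 74.4% (73.1 to 75.7) were also in the strongest decile by combined score, and their median absolute change was 2.04 points. In the middle of the order, the fifth decile, 16.1% (15.05 to 17.2) stayed in the same decile and the median absolute change was 16.2 points. In the weakest decile 26.7% (25.4 to 28.0) stayed and the median absolute change was 15.2 points. With 1 library on each side, the part of this movement that repeat libraries of 1 treatment would show is unknown.

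**Figure D2:**
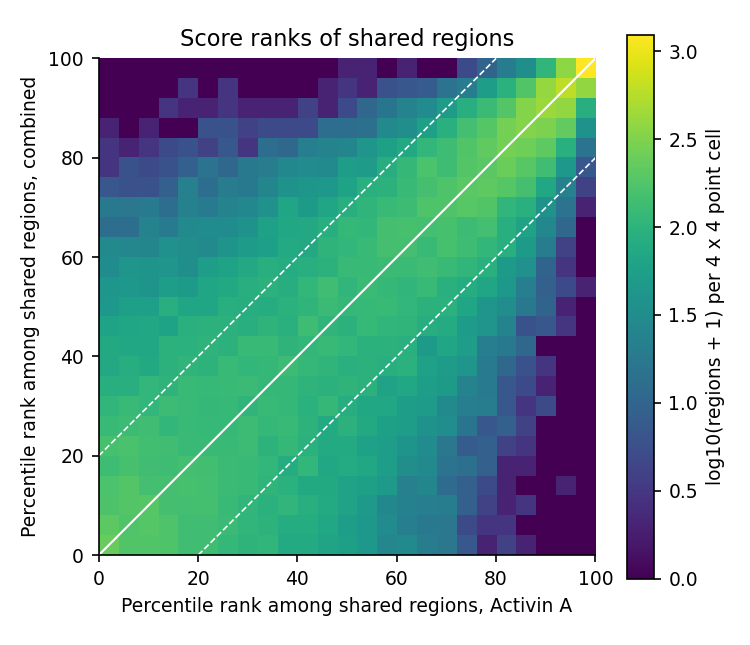
Percentile ranks of the 44444 shared regions in the Activin A library (horizontal) and in the combined library (vertical), ranked among shared regions; colour is the log10 of 1 plus the number of regions in each cell. The solid line marks equal rank and the dashed lines a change of 20 points. Regions crowd onto the line at the top right, where 74.4% of the strongest decile keep their decile, and spread widely in the middle.

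The 8 largest rises all began at the lower edge of the Activin A list where a peak is only just called. The region at chr1:5285528-5286858 in 1p36.32 had an Activin A score of 56.4 and a combined score of 327, which moved it from percentile 6.31 to 89.4 of the full lists. At chr1:17796311-17797400 in 1p36.13 the score was 54.0 with Activin A and 265 with both, and this region had a Wnt3a and a control peak, at percentiles 72.9 and 75.1 of those lists. The region at chr3:113251170-113252855 in 3q13.2 went from 56.0 to 287 and had a Wnt3a peak but no control peak. At chr7:116420590-116421557 in 7q31.2 the scores were 53.9 and 234, with a peak in neither outside list. The remaining rises, at chr4:139895210-139896820 in 4q31.1, chr2:45016979-45018254 in 2p21, chr8:144640192-144641317 in 8q24.3 and chr20:1293498-1294593 in 20p13, went from Activin A scores between 50.1 and 55.6 to combined scores between 192 and 232. Of the 8 regions, 4 had a Wnt3a peak and 5 a control peak. Over all 3548 regions up by 20 points or more on the full-list ranks, the shares were 17.9% and 22.8%.

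The 8 largest falls mirrored this, ending at the lower edge of the combined list, and a low end likewise follows from the choice. The region at chr5:132082488-132084182 in 5q31.1 had an Activin A score of 468 (percentile 91.1) and a combined score of 50.6 (percentile 2.17). At chr12:9066629-9068092 in 12p13.31 the scores were 401 and 50.1, and at chr13:79177381-79178314 in 13q31.1 they were 407 and 51.1. The region at chr20:865211-866239 in 20p13 fell from 430 to 52.6 although it had a Wnt3a peak at percentile 58.6 and a control peak at percentile 73.3. The other falls were at chr11:133401076-133403673 in 11q25, chr6:158652596-158654335 in 6q25.3, chr5:178771958-178773209 in 5q35.3 and chr7:2680764-2681842 in 7p22.3, with Activin A scores between 293 and 311 and combined scores between 50.1 and 50.3. A Wnt3a peak was present in 1 of the 8 and a control peak in 3. Over all 9789 regions down by 20 points or more on the full-list ranks, the shares were 22.1% and 28.9%. A score just above the minimum of the lists, 50.03 in the combined and 50.05 in the Activin A list, is next to absence. The 8 largest falls therefore border on the one-list classes.

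Regions that moved up with both ligands were not found more often in the Wnt3a library than regions that moved down. A Wnt3a peak was present in 1548 of the 6227 risen regions (24.9%, 23.8 to 25.95) and in 1744 of the 6235 fallen regions (28.0%, 26.9 to 29.1). On the full-list ranks the shares were 17.9% (16.7 to 19.2) of 3548 and 22.1% (21.3 to 22.9) of 9789. Fallen regions also had more control peaks, 35.2% (34.02 to 36.4) against 31.1% (29.9 to 32.3). Within deciles of the mean of the 2 ranks, the Wnt3a share of risen regions was below that of fallen regions in all 8 deciles where both had at least 20 members, and the intervals were apart in 1 of the 8. For control peaks the risen share was lower in 6 of the 8 deciles, with intervals apart in 2. The 1 decile with Wnt3a intervals apart was the third. There a Wnt3a peak was found in 10.2% (8.68 to 11.95) of risen and 14.4% (12.6 to 16.4) of fallen regions, and a control peak in 15.9% (14 to 17.9) and 20.4% (18.4 to 22.6). In the fourth decile the Wnt3a shares were closer, 18.3% (16.35 to 20.5) of risen and 19.2% (17.1 to 21.3) of fallen regions. Regions with a Wnt3a peak and no control peak made up 12.2% (11.4 to 13.1) of risen and 13.4% (12.6 to 14.3) of fallen regions.

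**Figure D3:**
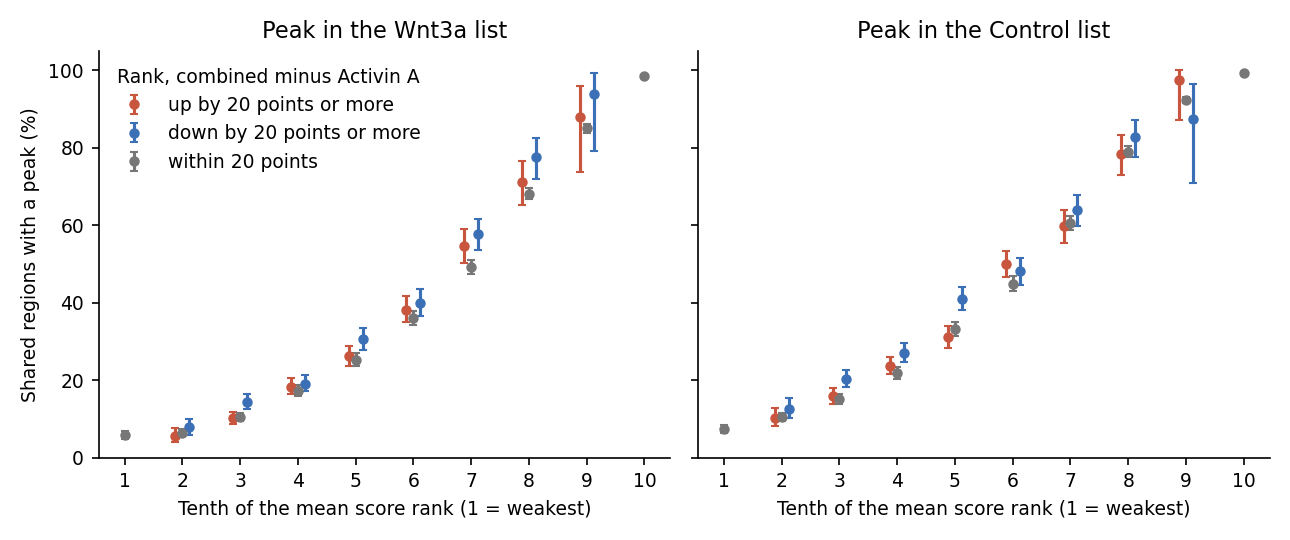
Share of shared regions with a peak in the Wnt3a list (left) and in the control list (right), by decile of the mean of their combined and Activin A ranks, for regions that rose by 20 points or more, fell by as much, or did neither. Bars are exact 95% intervals for counting error, and classes with fewer than 20 regions are not drawn. In the Wnt3a panel the risen regions lie below the fallen ones in all 8 deciles that hold both.

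The libraries also allow the addition of Wnt3a to be followed in separate pairs of libraries, once on top of Activin A and once without it, although the second step also changes the medium. Over the 13060 regions with a peak in all 4 lists, ranked among themselves, the change from Activin A to both ligands and the change from control to Wnt3a had a Pearson correlation of -0.020 and a Spearman correlation of -0.022. These regions are the stronger ones, each value comes from 1 library, and the correlation is a description. Of the 1549 regions that rose by 20 points or more when Wnt3a was added to Activin A, 740 (47.8%, 45.3 to 50.3) were higher in Wnt3a than in control, with a median difference of -1.35 points (-3.35 to 0.20). Of the 1559 that fell, 834 (53.5%, 51.0 to 56.0) were higher in Wnt3a, with a median of 2.26 points (0.69 to 4.23). Over the same regions the ranks of the combined and Activin A libraries had a Spearman correlation of 0.808, and every other pair of libraries had one between 0.539 and 0.663. Each of those pairs includes the Wnt3a or the control library, whose lists are shorter (21078 and 26223 peaks) with lower median scores (85.0 and 75.1). What part this has in the order of the correlations was not tested.

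Peak shape in shared regions followed the direction of the change. In the 40945 shared regions with a single peak in each list, both lists had a median width of 800 bp and the median ratio of combined to Activin A width was 1.01, with quartiles of 0.837 and 1.21. Over all risen regions, those with several peaks included, the summed width of the peaks in a region had a median of 678 bp with Activin A and 878 bp with both ligands. In fallen regions this summed width had medians of 830 bp and 638 bp. Regions split into several peaks went the other way, with 8.11% of risen regions holding 2 or more Activin A peaks and 1.37% holding 2 or more combined peaks, against 1.46% and 7.12% of fallen regions. Width and score are both set by the peak caller from the same reads, so they are not separate evidence.

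Position along chromosomes separated the libraries slightly, with the combined library ranked higher in darkly stained bands. Giemsa staining divides chromosomes into light bands, which are on the whole rich in genes and in G and C bases, and dark bands, which are poorer in both. The median rank change of shared regions was -0.36 points (-0.52 to -0.21) in unstained bands, -0.14 (-0.48 to 0.11) in the 25 stain class, 0.47 (0.07 to 0.88) in the 50 class, 1.36 (0.72 to 1.96) in the 75 class and 1.09 (0.51 to 1.75) in the 100 class. In the darkest class 17.5% of shared regions were up and 11.3% down by 20 points or more, whereas in unstained bands 13.2% were up and 14.7% down. When the 2 lightest and the 2 darkest of these classes were compared within deciles of the mean rank, the dark bands had the higher median in 10 of 10 deciles, and the intervals were apart in 4 of the 10 and overlapped in 6, with the widest gap in the fourth decile (-1.28 in light and 4.85 in dark bands).

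Regions in 1 list only showed the same tilt, and within score quartiles the difference was larger on the combined side. Of all 40769 such regions, 29.0% (28.6 to 29.5) were combined-only, and this share was 27.3% (26.8 to 27.9) in unstained bands and 34.3% (32.8 to 35.9) in the 100 stain class. Without regard to score, 19.5% of combined regions lacked an Activin A peak in unstained bands and 27.8% in the 100 class. For Activin A regions lacking a combined peak, the shares were 39.2% and 42.4%. Within quartiles of the combined score rank, more combined regions lacked an Activin A peak in dark than in light bands, for example 35.2% (33.4 to 37.0) against 25.4% (24.5 to 26.3) in the second quartile and 11.7% (10.4 to 13.1) against 6.62% (6.13 to 7.13) in the third. Activin A regions lacking a combined peak were fewer in dark than in light bands in the weakest quartile, 74.2% (72.6 to 75.7) against 76.8% (76.1 to 77.6), and close in the next ones, with 57.2% (55.5 to 58.8) in dark and 57.6% (56.8 to 58.5) in light bands in the second quartile and 24.12% (22.6 to 25.7) and 24% (23.3 to 24.8) in the third. Over the regions in all 4 lists, the change from control to Wnt3a had a median of 0.07 points (-0.33 to 0.51) in unstained bands and 2.15 (0.46 to 4.08) in the 100 class, with -1.09 (-2.34 to -0.13) in the 25 class and 0.56 (-0.72 to 2.18) in the 75 class. Whether base composition, read depth or library preparation has a part in the tilt was not tested.

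**Figure D4:**
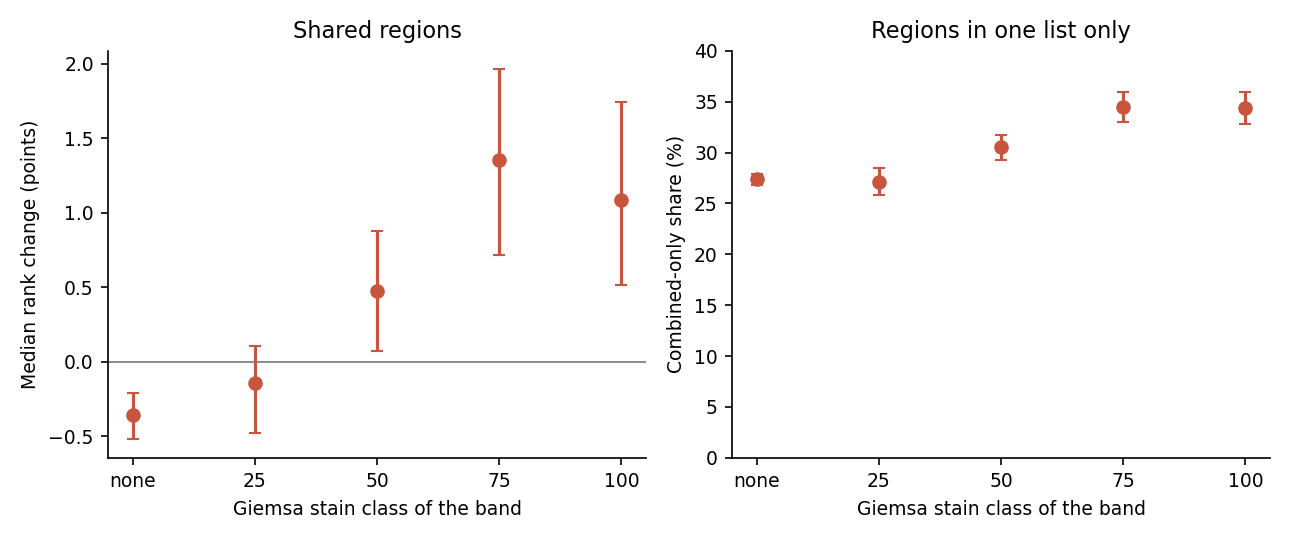
Left, median rank change of shared regions (combined minus Activin A, ranked among shared regions) by the Giemsa stain class of their band; right, share of regions in 1 list only that are combined-only. Bars are exact 95% intervals for counting error. The medians go from -0.36 in unstained bands to 1.36 in the 75 class, and the shares from 27.3% to 34.4%.

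Whole chromosomes differed little. Among autosomes the median rank change ran from -1.59 points (-2.58 to -0.38) on chromosome 22 and -1.51 (-2.42 to -0.82) on chromosome 20 to 1.08 (0.39 to 1.53) on chromosome 4 and 1.33 (0.47 to 2.28) on chromosome 13. Chromosome 19, which is dense in genes, had the lowest share of combined-only regions among the one-list regions of any autosome, 22.1% (19.9 to 24.3), and chromosome 4 the highest, 32.9% (30.8 to 35.1). Chromosome X had a median change of -0.0073 points (-0.97 to 1.30).

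Single bands moved further than chromosomes. The bands 6p22.2 and 6p22.1 on chromosome 6, which hold histone genes among other genes, were among those that moved most. Part of the major cluster of replication-dependent histone genes lies in 6p22.2, where the 65 shared regions had a median rise of 11.5 points (5.27 to 19.5). This was the highest value of the 342 bands with at least 50 shared regions, whose medians had quartiles of -1.59 and 1.30. In that band 24 regions (36.9%) were up by 20 points or more and 5 (7.69%) were down, beside 14% each way over all shared regions. Its neighbour 6p22.1, with the rest of the cluster, had 137 shared regions with a median rise of 6.93 points (4.57 to 10.4), 34 of them up and 13 down. On the full-list ranks the medians of the bands were 2.27 and 1.04, against -4.43 over all shared regions. In 6p22.2, 9 regions were found only with Activin A and 12 only with both ligands, a combined-only share of 57.1% (34.02 to 78.2) beside 29.02% over all. Of the Activin A regions of the band, 12.2% lacked a combined peak, beside 39.4% over all. Of its combined regions, 15.6% lacked an Activin A peak, beside 21.02% over all. From control to Wnt3a the 24 regions of 6p22.2 that were in all 4 lists had a median change of -5.91 points (-13.1 to 6.97).

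Within 6p22.2 the largest rise in full-list rank was at chr6:26420758-26422214, where the score was 61.1 with Activin A and 246 with both ligands. It was followed on the same scale by chr6:26272235-26273495, with 64.2 and 143, and chr6:26473876-26474944, with 78.7 and 222. None of these 3 regions had a Wnt3a peak, and 2 had a control peak. Whether any of them lies at a histone gene was not examined. The bands in this and the next paragraph were picked for their values, so their ranks among bands are a description.

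The other bands with the largest median rises were 3p13 (10.7 points, -2.59 to 18.5), 3q25.1 (7.38, 0.77 to 10.9), 10q23.33 (7.37, 0.62 to 12.95), 4q35.1 (5.74, 0.75 to 11.8), 20q13.2 (5.55, -3.14 to 10.3) and 17p12 (5.32, -0.67 to 11.3). The largest falls were in 9q34.2 (-8.10, -12.6 to -1.46), 1p35.2 (-7.31, -11.4 to -0.079), 16q22.2 (-5.56, -9.40 to 1.41) and Xq28 (-5.45, -11.96 to -2.25). The band 10q23.33 holds HHEX, a homeobox gene of early endoderm, and 20q13.2 holds SALL4, a pluripotency factor. Of the 342 bands, 8 had an interval wholly above 0 and 33 one wholly below. Among the 322 bands with at least 50 regions in 1 list only, the combined-only share was highest in 8p12 (43 of 80, 53.8%, 42.2 to 65.0) and lowest in 10q11.21 (7 of 63, 11.1%, 4.59 to 21.6) and 12q13.13 (14 of 113, 12.4%, 6.94 to 19.9), the band of the HOXC genes.

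Bands that hold genes of the pathways were then read as groups, with the band of each gene taken from general knowledge. A band holds many genes, so these values describe neighbourhoods and not the named genes. The 18 bands with targets of Wnt and beta-catenin had a median change of -0.12 points (-0.96 to 0.52) over 1530 shared regions, with 7 of the 18 band medians above 0. In them 15.2% of shared regions were up and 16.5% down by 20 points or more, and 31.4% (29.0 to 33.8) of their one-list regions were combined-only, beside 29.0% over all. Of the 342 bands with at least 50 shared regions, 8 had an interval wholly above 0 and 33 one wholly below. Here the interval lay wholly above 0 in 3 of the 18 bands and wholly below in 1. Each of the 3 has fewer than 50 shared regions, so the 342 bands are no background for them. The share over all smaller bands was not counted. Some small bands with no listed gene also had intervals apart from 0. Examples are 12p13.2 above (5.69, 0.86 to 12.1, 34 regions) and 13q33.1 below (-7.30, -18.8 to -1.30, 27 regions). Of the 18 bands, those above were 13q12.12 with the receptor gene TNFRSF19 (10.1 points, 0.69 to 15.5, 35 regions), 13q12.2 with the homeobox gene CDX2 (6.00, 0.17 to 15.8, 34 regions) and 18p11.22 with the Wnt inhibitor APCDD1 (4.84, 0.71 to 12.6, 39 regions). The band below was 17q25.3 with NOTUM, a secreted Wnt inhibitor (-2.59, -4.81 to -0.89, 270 regions). Of bands whose interval held 0, 17q24.1, the band of the feedback inhibitor AXIN2, had a median of -5.16 points (-16.3 to 1.02) over 26 regions. The band of the transcription factor LEF1, 4q25, had -0.40 (-2.98 to 2.31) over 92 regions, and that of SP5, another direct target, 2q31.1, had 2.43 (-0.0079 to 5.38) over 153.

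The bands of Nodal and Activin target genes had a median of -1.19 points (-2.02 to -0.42) over 1127 shared regions in 10 bands, and 25.0% (22.4 to 27.8) of their one-list regions were combined-only. Here 10q22.1, the band of the ligand gene NODAL, had a median of -1.60 (-3.38 to 1.26), and 1q42.12, which holds the Nodal antagonists LEFTY1 and LEFTY2 and the streak gene MIXL1, had -0.83 (-5.10 to 4.26). Of the 10 bands, 2 had an interval wholly below 0 and none one wholly above, beside 33 and 8 of the 342 bands with at least 50 shared regions. Some of the 10 bands hold fewer shared regions than that minimum. The 2 below 0 were 8q24.3 with FOXH1, a partner of the SMADs (-4.57, -6.95 to -1.62, 216 regions), and 3p21.31 with the Nodal co-receptor TDGF1 (-1.68, -2.64 to -0.19, 230 regions). The bands of endoderm genes had 1.56 (-0.40 to 2.96), those of pluripotency genes 0.27 (-1.09 to 1.83) and those of neuroectoderm genes -0.34 (-1.84 to 0.59). Over all 55 bands of the lists the median was -0.25 (-0.67 to 0.09), and 28 of the 55 were above 0.

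Among the 9 bands with primitive streak genes the median was -0.15 points (-1.30 to 0.65), and 3p24.1 had the highest of the 9. This band holds EOMES, a T-box factor of the primitive streak and endoderm. Its 36 shared regions had a median rise of 8.998 points (0.19 to 14.1). Of them, 11 (30.6%) were up and 2 (5.56%) down by 20 points or more, beside 14% each way over all shared regions. On the full-list ranks the band median was 1.32, against -4.43 over all shared regions. Some small bands with no listed gene rose more, such as 4q28.3 (17.8, 6.66 to 24.6, 25 regions) and 2q32.1 (10.4, 5.04 to 15.6, 42 regions). Others fell, such as 13q33.1 (-7.3, -18.8 to -1.30, 27 regions). The small bands on each side were not counted, so the rise cannot be called particular to 3p24.1. The one-list regions of 3p24.1 were divided nearly evenly, 25 combined-only and 28 Activin A-only. The combined-only share was 47.2% (33.3 to 61.4) beside 29.0% over all. Over the 11 regions of 3p24.1 present in all 4 lists, the change from control to Wnt3a was also positive, with a median of 10.6 points (0.19 to 22.5). The largest rise in full-list rank in the band was at chr3:27765343-27766211, where the score was 64.3 with Activin A and 115 with both ligands. Neither outside list had a peak there. The bands of the other T-box genes listed had 0.44 points (-4.91 to 6.11) over 107 regions for TBXT in 6q27 and -0.61 (-2.84 to 0.40) over 147 regions for TBX6 in 16p11.2.

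For the genes in the title of the series, the median change of the band had an interval that held 0 in both cases. In 8q24.13, the band of HAS2, 63 shared regions had a median change of -1.78 points (-5.42 to 3.35). By 20 points or more, 12 of them (19.1%) were up and 6 (9.52%) down, beside 14% each way over all shared regions. There 15 regions were combined-only and 43 Activin A-only, a combined-only share of 25.9% (15.3 to 39.0) beside 29.0% over all. In 17p11.2, the band of ALDH3A2, 162 shared regions had a median of -0.92 (-3.92 to 0.27). Here falls outnumbered rises, with 12 (7.41%) up and 26 (16.1%) down, beside the same 14%. There 35 regions were combined-only and 81 Activin A-only, a share of 30.2% (22 to 39.4).

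**Figure D5:**
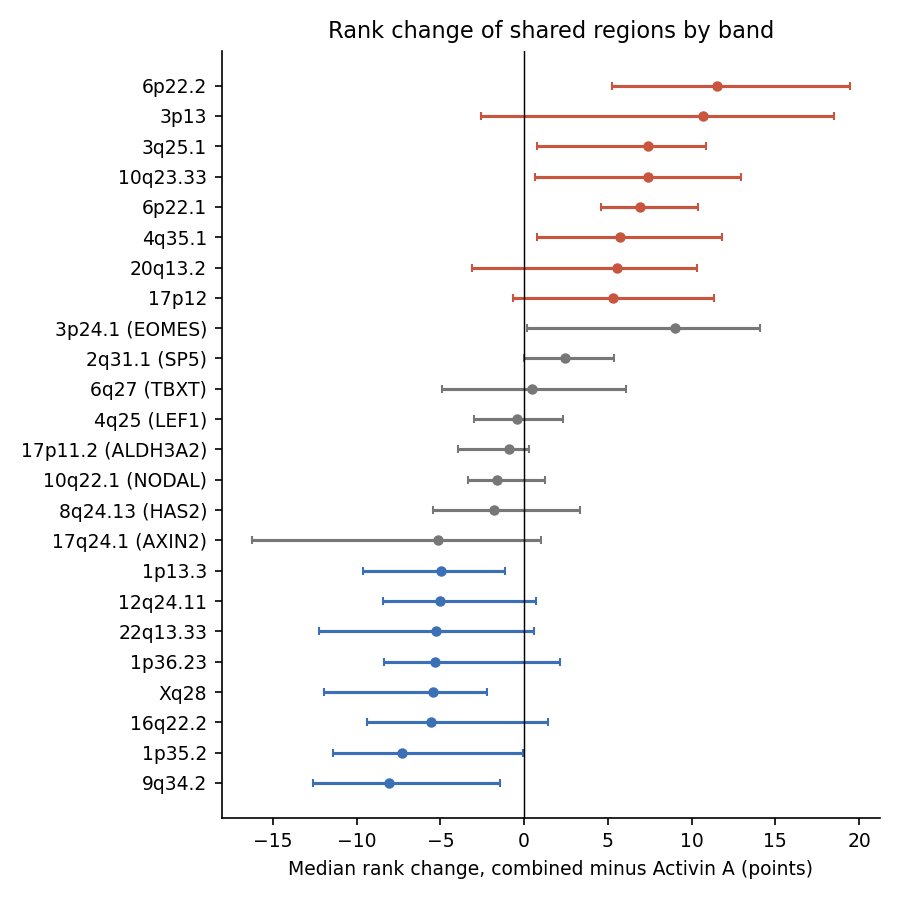
Median rank change of shared regions, combined minus Activin A, by cytogenetic band, with exact 95% intervals of the median. The 8 bands with the largest rises are in red and the 8 with the largest falls in blue, of the bands with at least 50 shared regions; bands of selected genes are in grey. The median of 6p22.2 is 11.5 points and that of 9q34.2 is -8.10, while the bands of HAS2 and ALDH3A2 are at -1.78 and -0.92 with intervals that hold 0.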

How the data were processed

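Each of the 4 libraries was represented by 1 list of peaks with chromosome, start, end, a name in the style of MACS and a score. The build is hg19, and the tools named are Bowtie2 2.2.2 and CASAVA 1.8, all per the submitters' processing notes. Caller version and settings, background library, duplicate removal, transposase shift and read numbers are not given in the sources used here; depth is therefore unknown, and each affects how many weak peaks pass. The score is the authors' own deposited value; from its values it appears to be -10 times log10 of a p-value within the library. It grows with depth and was used only for ranks within a list. Ties took their mean rank; the 75585 Activin A peaks hold 21371 different scores.

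Regions, ranks, exact (Clopper-Pearson) intervals and order-statistic intervals of medians were computed with Python 3.11.15, numpy 2.4.6, pandas 2.3.3 and scipy 1.17.1; figures with matplotlib 3.10.9. hg19 bands came from circlize 0.4.16, by region midpoint. Coordinates count from 1 and are those of the named peak. The steps were tested on simulated data. Named regions are the 8 highest-scoring of each one-list class and the 8 largest rises and falls in full-list rank; those in 6p22.2 and 3p24.1 were added after their values were seen. Members and lists were chosen with earlier results of these data known. The stain, chromosome, band and 4-list summaries were added after seeing the data, and listed genes were given bands from general knowledge after some of those bands had been looked at. WNT3, SP8 and CXCR4, near band edges, were left out. Planned gene distances, markers, sequences and motifs needed hg19 annotation or genome, not used here.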

Additional observations from a re-analysis of the deposited data

How the results depend on the processing

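Of 64 values recomputed under alternatives, 41 stayed within 1.5 times (counts) or inside their 95% interval (shares and medians) and 23 moved. Only the median rank change can change sign, and it stayed negative. With ranks among shared regions its interval was -0.12 to 0.08, and that ranking fixes the mean change, so the sign there says little. The same holds for the small value at equal list length. At equal list length 16201 regions were Activin A-only, the median rank change was -0.019, 5542 shared regions rose and 5611 fell, and Wnt3a peaks were in 4.06% of combined-only, 4.83% of Activin A-only, 22.5% of risen and 23.7% of fallen regions. With the top 50% of each list, 4262, 12624 and 24365 regions were combined-only, Activin A-only and shared, fewer by construction. With ranks among shared regions the median was -0.0039, 6227 rose and 6235 fell, with Wnt3a peaks in 24.9% and 28.0%. At 30 points 1892 rose and 5542 fell, with Wnt3a peaks in 19.7% of fallen regions. An overlap of 50% of each peak gave Wnt3a shares of 10.99% (combined-only) and 7.53% (Activin A-only), and 500 bases around each centre 7.07% and 5.11%; the cause was not tested. On autosomes, with peaks within 500 bases merged, and without centromeric, heterochromatic and stalk bands (chosen after seeing the data), all values computed stayed. Stain, chromosome and band values were not recomputed. Unknown depth limits every statement on weak peaks. No paired analysis was possible because a single library stands on each side.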
